A study of Mus musculus with 5 samples.

Results

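The core genes of hepatic glucose production, 6 of the 32285 genes in the deposited matrix, were examined cell by cell in mouse liver: Pck1, G6pc, Fbp1, Pcx, Slc37a4 and Ppargc1a. They were chosen by symbol, and all 6 had UMIs (unique molecular identifiers, each standing for 1 captured transcript) in each of the 5 libraries. The values concern how each gene was spread over single hepatocytes, whether cells high in 1 gene were high in another, and how both related to Cyp2e1 and Cyp2f2, which mark opposite ends of the liver lobule.

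Gluconeogenesis builds glucose from lactate, glycerol and amino acids and lets the liver feed the blood between meals. Pcx encodes pyruvate carboxylase, which makes oxaloacetate in mitochondria, and Pck1 encodes the cytosolic enzyme that turns oxaloacetate into phosphoenolpyruvate. Fbp1 encodes fructose bisphosphatase, G6pc the catalytic subunit of glucose-6-phosphatase, and Slc37a4 the transporter that carries glucose-6-phosphate to it across the membrane of the endoplasmic reticulum. Ppargc1a encodes the coactivator PGC-1α, known for raising transcription of these enzymes during fasting. In liver, glucose production is a function of periportal cells, next to the incoming blood, where Cyp2f2 is high, while Cyp2e1 is high around the central vein.

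The hepatocytes came from male C57BL/6J mice, wild type and kept on normal chow, and were profiled with the 10x Genomics 3' v3 chemistry, 1 library per time point. All mice had been trained for 3 days with 16 h of fasting overnight and 8 h of food by day, and on the last day were given chow and 20% sucrose water. The fed group was sampled after 4 h of feeding (0 h), and the fasted groups 4, 8, 16 and 24 h after food and sucrose were taken away. Clock hours were 13, 17, 21, 5 and 13, so that only 24 h and 0 h shared an hour and fasting time cannot otherwise be told apart from time of day. How many mice made up each library is not stated in the labels. With 1 library per group there was no replicate, no test and no p-value, and every interval below covers counting error only.

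Of 10000 barcodes per library, those with at least 1000 UMIs, 500 genes and 2% to 30% mitochondrial UMIs numbered 7826, 4567, 2716, 9125 and 4576 in time order. Leaving out cells that carried markers of another cell type kept 7736, 4561, 2705, 9087 and 4560 hepatocytes. The 7 hepatocyte markers, which the removal did not use, summed to between 95449 and 119189 CPM (summed UMIs over all nuclear-encoded UMIs of the cells, scaled so that 100 CPM is 1 UMI per 10000), so the label held on these. Markers of other cell types served to remove cells, so their low sums were partly fixed by that step. What was left summed to at most 76.1 CPM for 6 cholangiocyte markers (16 h, of which Sox9 made up 70.4 CPM), 67.0 CPM for 5 erythroid markers (8 h, all from Alas2), and 52.7 and 10.5 CPM for 8 endothelial and 8 macrophage markers (0 h). Libraries shared between 1 and 17 cell barcodes, at most 0.259% of a library's hepatocytes. The median cell had 4768.5, 9404, 13563, 3763 and 7237.5 nuclear-encoded UMIs. The 4 h and 24 h libraries each held a shallow and a deep group of cells, with medians of 1546 and 14311 UMIs below and above 3000 UMIs at 4 h, and 2301 and 10473.5 at 24 h. Barcodes under 2% mitochondrial UMIs, outside the rule, made up 53.5% and 54.0% of the deeper barcodes there (those past the UMI and gene limits) and 21.7%, 17.3% and 2.50% at 0, 8 and 16 h. Because levels in shallow cells differed from those in deep ones, correlations between members are given for all hepatocytes and for those of 3000 or more UMIs, called deep cells.

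The sequences before the start sites of Pck1 and G6pc are shown because these genes encode an early and the last enzyme of the pathway and held the only motif matches among the members. Each is the 250 bases before the RefSeq start (GRCm38.p6, plus strand, 5′ to 3′), with matches in capitals.
Pck1, chr2:173152823-173153072: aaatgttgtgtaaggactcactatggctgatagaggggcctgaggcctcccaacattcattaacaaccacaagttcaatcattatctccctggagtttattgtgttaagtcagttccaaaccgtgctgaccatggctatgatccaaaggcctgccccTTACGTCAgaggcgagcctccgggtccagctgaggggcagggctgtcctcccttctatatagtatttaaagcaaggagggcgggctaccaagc
G6pc, chr11:101367466-101367715: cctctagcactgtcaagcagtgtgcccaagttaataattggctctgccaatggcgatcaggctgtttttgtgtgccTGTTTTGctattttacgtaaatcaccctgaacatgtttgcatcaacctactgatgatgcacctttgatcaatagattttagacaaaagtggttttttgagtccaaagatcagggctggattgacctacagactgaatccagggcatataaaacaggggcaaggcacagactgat
The capitals in Pck1 mark TTACGTCA, a form of the cAMP response element through which glucagon signalling is known to act on this gene, 93 to 86 bases before the start. Those in G6pc mark the reverse complement of CAAAACA, a motif of the insulin response unit, 174 to 168 bases before the start. Among 32817 promoter windows of the same length from 26994 genes, 0.445% held the first motif and 5.56% the second, counting both strands. No member held TGACGTCA (1.55% of windows), GTAAACA (3.16%), TGTTCT (16.1%), CAAAGTCCA (0.384%) or TTGCGCAA (0.165%). These are matches of letters, not measured binding.

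Pck1 (ENSMUSG00000027513, GRCm38 chromosome 2, 173153048 to 173159273, plus strand) stood at 903 CPM in the fed library and at 3985, 3665, 3745 and 4724 CPM at 4, 8, 16 and 24 h. All 4 fasted libraries lay above the fed one, by a log2 ratio of 2.14 (95% interval 2.13 to 2.16) at 4 h and 2.39 (2.37 to 2.40) at 24 h. Pck1 was at least 2-fold higher than fed at each time. At 4 h it shared this with Ppargc1a (2 of 6 members), at the other times it was the only member of the 5 that reached 50 CPM in either library. Of all genes at that level, 5.81%, 7.93%, 3.31% and 6.72% were at least 2-fold higher at 4, 8, 16 and 24 h, and 5.91%, 11.7%, 4.08% and 10.5% at least 2-fold lower.

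G6pc (ENSMUSG00000078650, chromosome 11, 101367561 to 101377903, plus strand) stood at 399.6 CPM in the fed library and 339, 730, 785 and 577 CPM in the fasted ones. It was below fed at 4 h, by a log2 ratio of -0.24 (-0.27 to -0.20), and highest at 16 h, at 0.97 (0.95 to 1.0). Slc37a4 (ENSMUSG00000032114, chromosome 9, 44396852 to 44402968, plus strand), whose protein works with that of G6pc, did not follow it. It stood at 226, 188, 248, 99.2 and 219 CPM. The 16 h library was the low one, at a log2 ratio to fed of -1.19 (-1.24 to -1.13), and Slc37a4 was the only member at least 2-fold lower at any time. In deep cells the 16 h library was also the low one, at 98.2 CPM against 192 to 248 CPM in the other 4 libraries. In shallow cells it was not the lowest, at 104 CPM against 191, 126, 248 and 99.2 CPM at 0, 4, 8 and 24 h. The 16 h library also had the highest sum of 8 acute phase genes, 14969 CPM against 2865 to 6611 CPM. The part of these genes in the low value was not tested.

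Fbp1 (ENSMUSG00000069805, chromosome 13, 62864753 to 62888282, minus strand) stood at 1100.2, 711, 652, 924 and 992 CPM. Every fasted library was below the fed one, with the lowest log2 ratio, -0.75 (-0.78 to -0.73), at 8 h. At 24 h the ratio was -0.15 and turned to 0.12 when barcodes under 2% mitochondrial UMIs were counted, and to 0.05 as a mean of per-cell values. Pcx (ENSMUSG00000024892, chromosome 19, 4510472 to 4621752, plus strand) moved least, with 244, 231, 280.3, 237 and 301 CPM and log2 ratios between -0.08 and 0.30. Ppargc1a (ENSMUSG00000029167, chromosome 5, 51454250 to 51567726, minus strand) carried few UMIs, on average 0.117 per cell in the fed library and at most 0.560 (at 4 h), and stood at 24.1, 56.1, 35.4, 37.4 and 40.4 CPM. Its highest value was at 4 h, a log2 ratio to fed of 1.22 (1.11 to 1.33), and the fasted libraries at 8, 16 and 24 h followed at 0.55, 0.63 and 0.74, with overlapping intervals. The Pcx locus overlaps Lrfn4 on the other strand, and that of Slc37a4 a microRNA gene on its own strand. That of Ppargc1a overlaps 3 unverified models on its strand and 1 on the other. Whether these overlaps touched the counts was not tested.

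**Figure D1:**
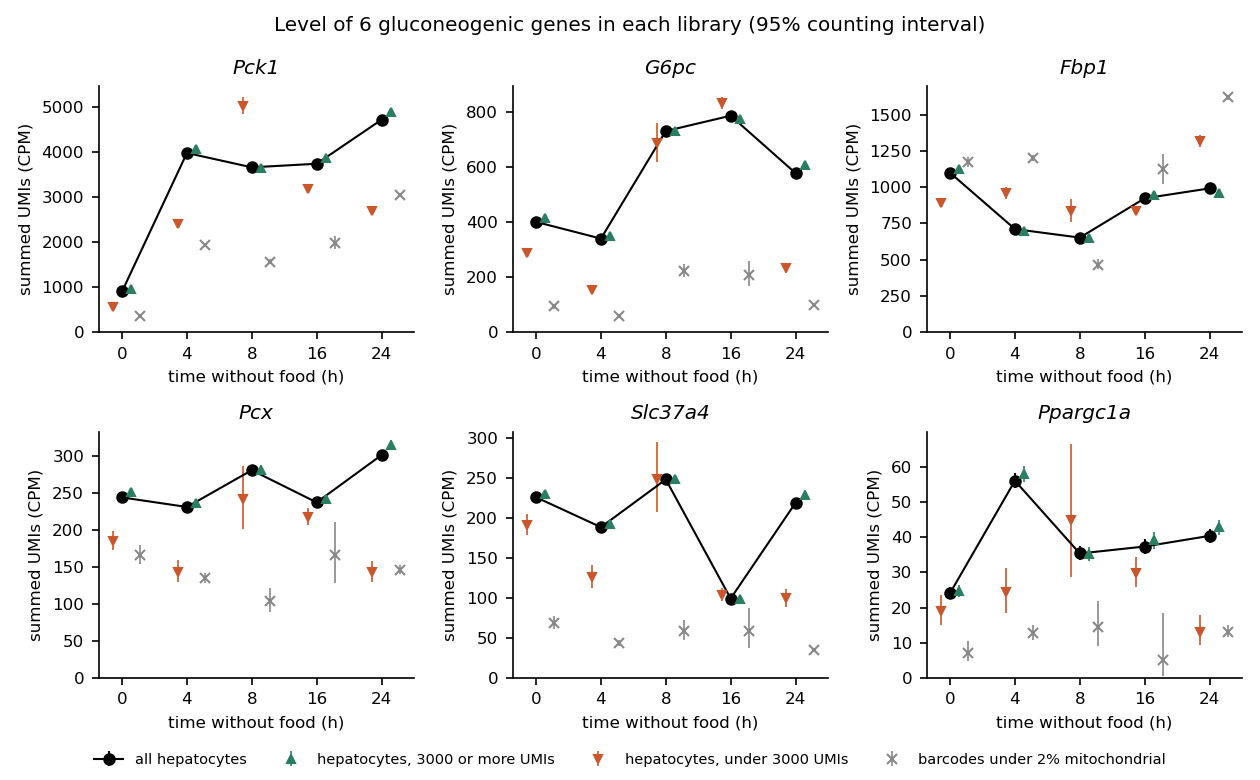
Level of each of the 6 genes (CPM of summed UMIs, y axis) against time without food (x axis), for all hepatocytes (black), those of 3000 or more UMIs (green) and under 3000 UMIs (orange), and for barcodes under 2% mitochondrial UMIs (grey), with 95% counting intervals. Shallow cells at 4 h and 24 h lay below deep cells in Pck1 and G6pc and above them in Fbp1.

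The shallow cells of the 4 h and 24 h libraries lay between deep cells and the low-mitochondrial barcodes in 6 of 6 members at 4 h and in 3 of 6 (G6pc, Slc37a4 and Fbp1) at 24 h. At 24 h, G6pc stood at 607 CPM in deep hepatocytes, 232 CPM in shallow ones and 98.5 CPM in low-mitochondrial barcodes. Slc37a4 ran the same way, at 229, 99.2 and 34.8 CPM, and Cyp2f2 at 1749, 830 and 256 CPM. Fbp1 ran the other way, at 964, 1319 and 1621 CPM. At 4 h the 3 values were 349, 154 and 58.8 CPM for G6pc and 697, 961 and 1203 CPM for Fbp1. At 8 h, where 11.4% of hepatocytes were shallow, G6pc differed little between them (685 CPM in shallow and 730 CPM in deep cells), and shallow cells were higher in Pck1, at 5037 against 3643 CPM. The part of the low-mitochondrial barcodes in these differences was not tested.

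Over single cells, fed hepatocytes were spread widely in Pck1. The median fed cell had 6.13 Pck1 UMIs per 10000, the lower quartile was 1.75, and the 95th percentile 24.7. Under fasting the whole range moved up: the 5th percentile was 6.29, 18.4, 8.88 and 9.14 per 10000 at 4, 8, 16 and 24 h, so that at 8 h at least 95% of cells lay above the fed 75th percentile of 12.0. The spread beyond counting noise, as a coefficient of variation, was 0.86 in fed cells and 0.48, 0.33, 0.44 and 0.51 in the fasted libraries. The 8 h library thus had the narrowest distribution of Pck1 relative to its mean, and the fed library the widest. The tenth of fed cells with the highest Pck1 fraction held 32.6% of the summed cell fractions, against 18.4% to 20.4% in the fasted libraries. These shares include counting noise, at a mean of 4.39 Pck1 UMIs per fed cell against 13.8 to 45.8 per fasted cell.

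G6pc was more unevenly spread than Pck1 under fasting. Its median per cell was 2.72, 2.40, 6.61, 6.65 and 4.07 UMIs per 10000, and its coefficient of variation beyond counting noise 0.78, 0.62, 0.43, 0.60 and 0.75. In the 0, 4 and 24 h libraries at least 25% of cells had no G6pc UMI at full depth. Fbp1 was the most even of the 3, with a coefficient of variation between 0.30 and 0.34 in every library. For Pcx, Slc37a4 and Ppargc1a most of the spread was counting noise. The share of variance beyond it passed 0.1 only at 24 h for Pcx (0.22) and Slc37a4 (0.21) and at 4 h for Ppargc1a (0.11). It was 0.69 to 0.86 for Pck1, 0.38 to 0.63 for G6pc and 0.19 to 0.34 for Fbp1.

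**Figure D2:**
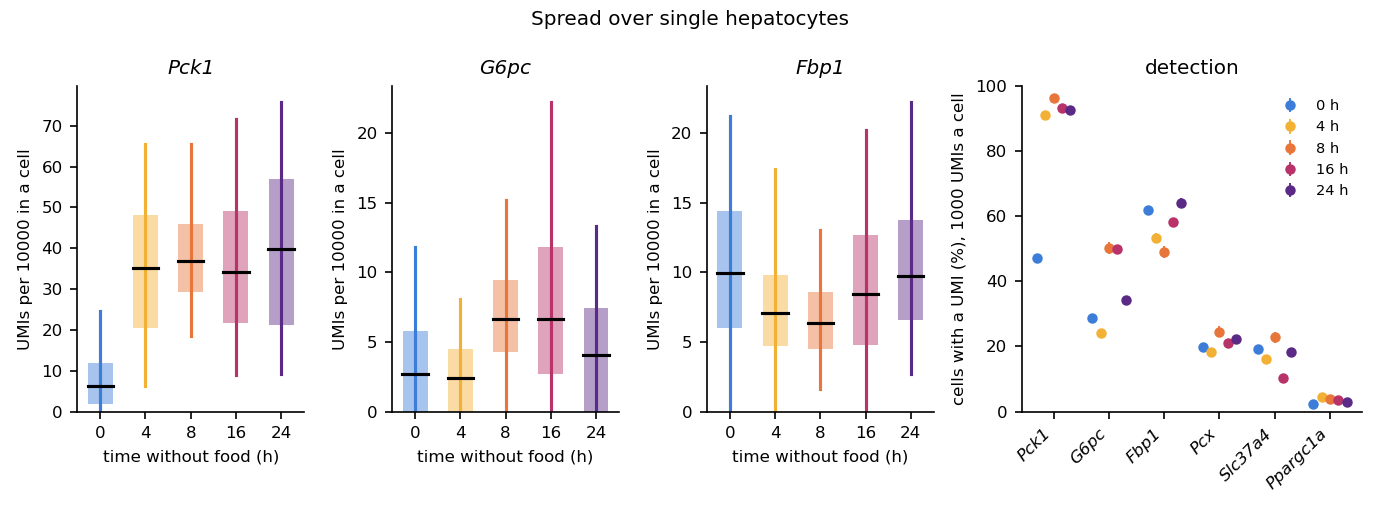
The first 3 panels show UMIs per 10000 in a cell (y axis) by time without food (x axis), with the median as a black line, the interquartile range as a bar and the 5th to 95th percentile as a line. The last panel gives the share of cells with a UMI after each cell was thinned to 1000 UMIs, with 95% counting intervals. The Pck1 shares of 47.3% in the fed library and 91.2% or more in the fasted ones stood beside 29.8% and 69.7% to 93.8% of low-mitochondrial barcodes, and at 24 h the share was not above them.

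Shares of cells with a UMI were compared after thinning each cell to 1000 nuclear-encoded UMIs, which left out 4, 25 and 118 shallower cells at 4, 8 and 16 h. A Pck1 UMI was then found in 47.3% of fed cells (46.2% to 48.4%) and in 91.2%, 96.2%, 93.1% and 92.7% of fasted ones (unthinned 78.2%, 97.3%, 99.9%, 98.9% and 99.6%). Pck1 UMIs in other classes of barcodes limited how such shares could be read, and the source of those UMIs was not tested. Endothelial-like cells, which should lack the gene, showed Pck1 in 4 of 49 (8.16%) in the fed library but in 20 of 27 (74.1%, 53.7% to 88.9%) at 16 h, at median depths of 1801 and 1145 UMIs. Low-mitochondrial barcodes showed it in 29.8%, 85.9%, 69.7%, 78.1% and 93.8%, at median depths of 1136 to 2624 UMIs, so that the share at 24 h was not above theirs and is not read as expression. Whether these barcodes are cells, nuclei or debris was not tested, and their shares stand here as a comparison, not as a measure of free RNA.

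For G6pc the share was 28.8%, 24.0%, 50.2%, 50.1% and 34.2% of hepatocytes, above the 8.70%, 5.54%, 17.0%, 19.7% and 9.04% of low-mitochondrial barcodes in every library (unthinned 66.1%, 70.2%, 94.3%, 83.2% and 74.6%). It was 1 of 49 endothelial-like cells in the fed library and 3 of 27 at 16 h. For Fbp1 the shares of 62.1%, 53.3%, 49.0%, 58.3% and 64.2% were at or below the low-mitochondrial barcodes in all libraries but 8 h (68.9%, 69.1%, 32.0%, 67.5% and 78.8%), and 28 of 49 endothelial-like cells of the fed library had an Fbp1 UMI (57.1%). The Fbp1 shares outside 8 h are not read as expression. Slc37a4 was found in 19.1%, 16.2%, 22.8%, 10.2% and 18.4% of hepatocytes against 3.67% to 6.17% of low-mitochondrial barcodes. Ppargc1a was found in 2.39%, 4.56%, 3.92%, 3.67% and 2.83%, against 0.552% to 1.29%. Pcx was found in 19.8%, 18.4%, 24.5%, 21.0% and 22.3%, against 9.74% to 15.8%.

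Joint detection of Pck1, G6pc and Fbp1 was close to what the single shares gave in the fasted libraries and above it in the fed one. At 1000 UMIs per cell, 15.1% of fed cells had both Pck1 and G6pc, against 13.6% if the 2 were independent, a ratio of 1.11. In the fasted libraries the share was 22.6%, 48.8%, 47.3% and 32.3%, and the ratio 1.03, 1.01, 1.01 and 1.02. Pck1, G6pc and Fbp1 were found together in 10.3% of fed cells (ratio 1.22) and in 11.8%, 24.7%, 28.2% and 20.8% of fasted ones (ratios 1.01, 1.04, 1.04 and 1.02). Joint shares that include Fbp1 outside 8 h or Pck1 at 24 h are not read as expression, like the single shares. No joint share of low-mitochondrial barcodes was computed. With Pcx as the fourth gene the ratio was 1.40 in the fed library (2.34% of cells) and 1.07, 1.08, 1.03 and 1.18 in the fasted ones, and for G6pc with Slc37a4 it was 1.18 at 24 h and at most 1.06 at the other times. At 3000 UMIs per cell the 3 genes were all found in 49.1%, 53.5%, 72.9%, 75.4% and 68.1% of cells, and none of the 3 in 52 of 5502 fed cells and in at most 3 cells of a fasted library. Where nearly every cell has a UMI of a gene, such ratios cannot move far from 1, so graded levels were compared instead.

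The correlation between members over cells was corrected for counting noise, so that a value of 1 would mean that cell fractions rise and fall in proportion once sampling is removed. It is given only where the share of variance beyond counting noise was at least 0.1 for both genes, which left 3 of 15 pairs at 0, 8 and 16 h, 6 at 4 h and 10 at 24 h. Cells of 1 library share its handling, depth and free RNA, and no p is attached.

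Pck1 and G6pc were positively correlated in all 5 libraries, at 0.34, 0.44, 0.25, 0.34 and 0.40 over 7736, 4561, 2705, 9087 and 4560 cells. In cells of 3000 or more UMIs the values were 0.31, 0.14, 0.28, 0.44 and 0.21, over 5502, 3140, 2396, 5994 and 3270 cells. The values at 4 h and 24 h thus fell to 0.14 and 0.21 without shallow cells, while that at 16 h was higher.

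Pck1 and Fbp1 correlated at 0.41, -0.00, 0.47, 0.74 and 0.09, and in deep cells at 0.39, 0.38, 0.27, 0.69 and 0.35. The 16 h library was the high one, in all and in deep cells. G6pc and Fbp1 correlated at 0.26, -0.30, 0.20, 0.26 and -0.12, and in deep cells at 0.29, 0.21, 0.29, 0.36 and 0.20. The negative values at 4 h and 24 h were not seen in deep cells, where Pck1, G6pc and Fbp1 were positively correlated pair by pair in all 5 libraries. Shallow cells at these times were low in G6pc and high in Fbp1, as given above.

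The other members could be compared in 1 library each. At 24 h Pcx correlated with Slc37a4 at 0.79, with G6pc at 0.61 and with Pck1 at 0.53, and in deep cells at 0.50, 0.39 and 0.31. With Fbp1 it stood at -0.29, and at 0.07 in deep cells. Slc37a4 correlated with G6pc, its partner in glucose release, at 0.62 (0.45 in deep cells), with Pck1 at 0.37 (0.08) and with Fbp1 at -0.41 (-0.07). At 4 h Ppargc1a correlated with Pck1 at 0.65 (0.45) and with G6pc at 0.58 (0.26), but with Fbp1 at -0.18 (0.26). Over the pairs given in each library the median was 0.34, 0.22, 0.25, 0.34 and 0.38, and in deep cells 0.31, 0.26, 0.28, 0.44 and 0.26.

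**Figure D3:**
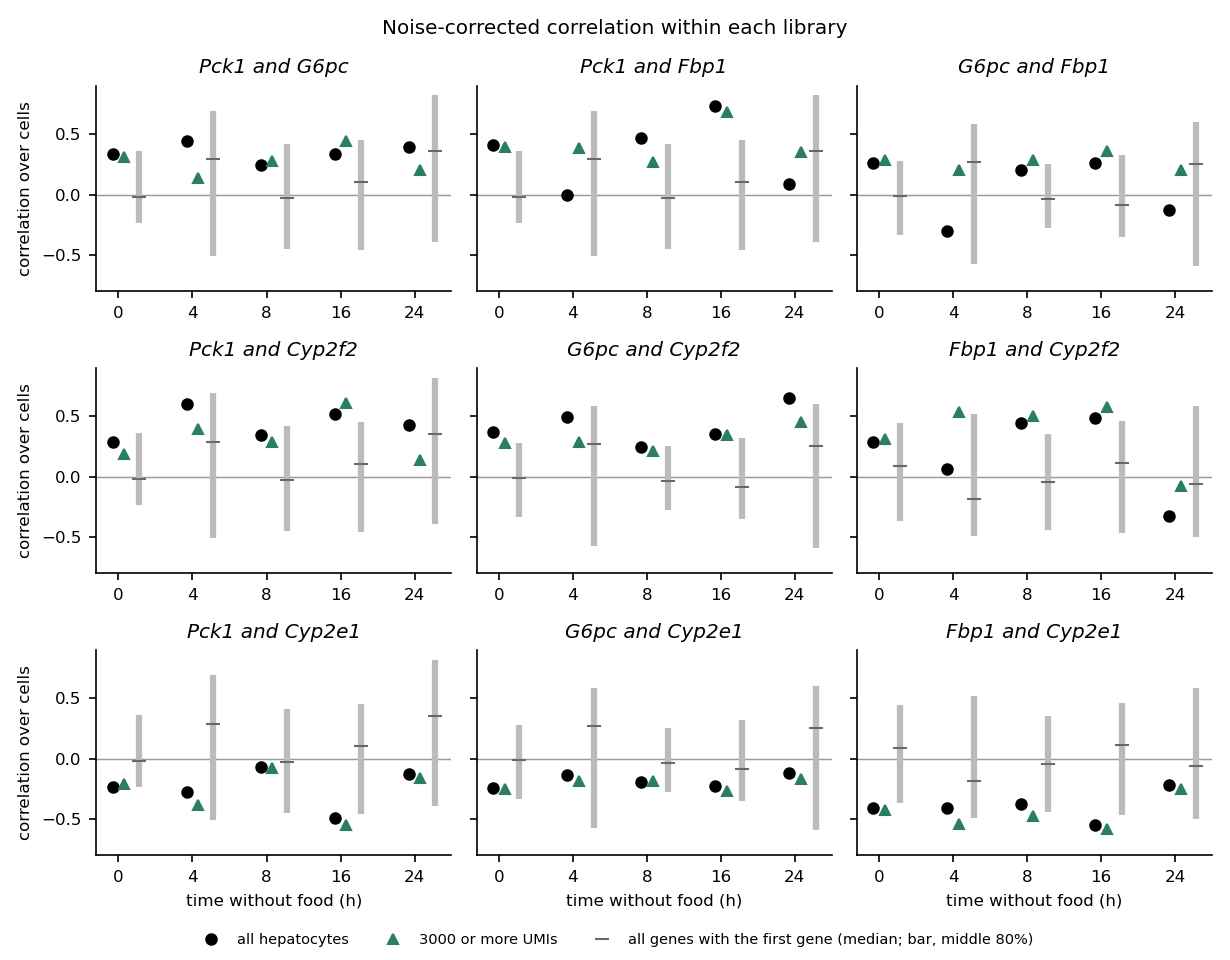
Noise-corrected correlation over cells (y axis) for 9 pairs of genes by time without food (x axis), in all hepatocytes (black points) and in those of 3000 or more UMIs (green triangles). Grey bars give the middle 80% and the median of the correlations of all measured genes with the first gene of the pair, in all hepatocytes. With Cyp2e1 all 15 values in all hepatocytes were negative. The values of Pck1 with Fbp1 in all hepatocytes at 0, 8 and 16 h (0.41, 0.47 and 0.74) lay above their grey bars.

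These values were read against all genes at 50 CPM or more in every library whose variance passed the same limit. The median gene had a correlation with Pck1 of -0.02, 0.29, -0.02, 0.10 and 0.36 in time order over 820, 1079, 724, 429 and 1408 genes, so that positive values with Pck1 were common at 4 h and 24 h. A coefficient of 0.2 or more with Pck1 was reached by 25.1%, 55.1%, 27.3%, 38% and 59.1% of genes, and -0.2 or less by 13.2%, 27.9%, 32.6%, 31.9% and 20.4%. G6pc reached 0.2 in all 5 libraries and Fbp1 in those at 0, 8 and 16 h. The G6pc value was higher than that of 87.3%, 62.4%, 76.5%, 82.1% and 52.8% of genes, and in deep cells of 85.0%, 50.4%, 80.5%, 87.8% and 38.0%. The Fbp1 value was higher than that of 94.1%, 93.2% and 99.1% of genes at 0, 8 and 16 h, and than 36.4% and 34.9% at 4 and 24 h. In deep cells the Fbp1 shares were 95.3%, 79.6%, 79.5%, 98.3% and 46.8%, so that 4 h no longer stood below 8 h. From the side of G6pc, Pck1 stood higher than 94.8%, 70.9%, 89.5%, 90.4% and 64.8% of genes, and in deep cells than 98.8%, 81.7%, 92.8%, 90.0% and 72.2%. At 24 h the correlation of Pck1 with G6pc in all hepatocytes was thus close to that of a middle gene with Pck1. In deep cells it was below the middle gene at 24 h, at 0.21 against a median of 0.40. It was level with the middle gene at 4 h, at 0.14 against 0.14.

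By the median over the 5 libraries in all hepatocytes, the genes most like Pck1 among the 379 that passed in all of them were Uroc1 (0.74), Hal (0.74), Uox (0.71), Irf2bp2 (0.69) and Ptma (0.68). Uroc1 and Hal encode consecutive enzymes of histidine breakdown, and Uox encodes urate oxidase. Uroc1 and Hal were also on the list of portal landmark genes. G6pc came at rank 69 with 0.34, Fbp1 at rank 49 with 0.41 and Cyp2f2 at rank 44 with 0.43. These leading genes were not alike in every library: Hal stood at 0.52, 0.74, 0.15, 0.77 and 0.82, and Uox at -0.05 at 8 h. The lowest were Wfdc21 (-0.54), Tmem205 (-0.52), Apoc4 (-0.50), Atp5j2 (-0.48) and Apom (-0.48), of which Apoc4 and Apom encode apolipoproteins. Atp5j2 stood at 0.02 at 16 h, and in deep cells at 0.12, -0.19, -0.44, -0.06 and -0.32. In deep cells Wfdc21 stood at 0.02, -0.37, -0.50, -0.11 and -0.66. Tmem205 ranged there from -0.78 to -0.27, Apom from -0.74 to -0.22 and Apoc4 from -0.69 to -0.08.

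For G6pc the highest were Slc2a2 (0.52), Atp1b1 (0.49), Slc7a2 (0.48), Cps1 (0.47) and Igf1 (0.46), with Pck1 at rank 35. Slc2a2 encodes GLUT2, the plasma membrane glucose transporter of hepatocytes, and Slc7a2 a transporter of cationic amino acids. Slc2a2 stood at 0.38, 0.65, 0.52, 0.52 and 0.75, and in deep cells at 0.26, 0.32, 0.45, 0.53 and 0.64, above the Pck1 value in 4 of 5 libraries in deep cells. The lowest were Fdps (-0.48), a cholesterol synthesis enzyme, the ribosomal protein genes Rpl17 (-0.47) and Rps16 (-0.46), Mt1 (-0.46), a metallothionein, and Urah (-0.46). In deep cells Mt1 stood at -0.07, -0.14, -0.04, -0.51 and -0.25, and Fdps at -0.20, -0.16, -0.24, -0.43 and -0.36. Rpl17 stood there at -0.18, -0.17, -0.39, -0.15 and -0.42. Rps16 was at -0.07, -0.20, -0.43, -0.25 and -0.29 in deep cells, and Urah at -0.06, -0.28, -0.44, -0.25 and -0.38. For Fbp1, Uroc1 (0.70) and the urea cycle gene Otc (0.63) were among the highest, and Itm2b (-0.57) and Abcc2 (-0.54) among the lowest. The Fbp1 values were not alike in every library either. Uroc1 stood at -0.06 and -0.01 at 4 and 24 h (deep cells 0.48 and 0.29), and Itm2b at 0.45 at 8 h (deep cells 0.16). Pck1 stood at rank 22 for Fbp1.

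Of 26 other pathway genes, 12, 15, 15, 6 and 20 had a correlation with Pck1 that could be given in time order. It was 0.2 or more for 9, 10, 6, 5 and 14 of them and -0.2 or less for 1, 3, 4, 1 and 3, with medians of 0.29, 0.56, 0.07, 0.54 and 0.67. Of both lists together, 6 genes were given in all 5 libraries. Among the highest were Tat, which breaks down tyrosine (median 0.67), and Got1, the cytosolic aspartate transaminase (0.59). Got1 stood at 0.44, 0.73, 0.59, 0.54 and 0.70, and its own level went from 121 CPM in the fed library to 555, 1332, 207 and 459 CPM. The lowest were Sds, which makes pyruvate from serine (-0.05), the glycolytic and gluconeogenic enzyme gene Gapdh (-0.01) and Cebpb, a transcription factor (0.37). Sds stood at 0.33 and 0.54 at 0 and 16 h but at -0.33 and -0.39 at 4 and 24 h. Of 26 genes of hormonal and transcriptional control, 5, 9, 5, 1 and 11 could be given, with 0.2 or more in 2, 9, 3, 0 and 10 and medians of 0.07, 0.66, 0.35, -0.15 and 0.71. These counts stand beside the shares of all genes given above, 25.1%, 55.1%, 27.3%, 38% and 59.1% for 0.2 or more and 13.2%, 27.9%, 32.6%, 31.9% and 20.4% for -0.2 or less. The 4 of 15 pathway genes at -0.2 or less at 8 h were no larger a share than among all genes.

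Along the lobule, the pair of zone genes was anticorrelated in each library, at -0.66, -0.68, -0.78, -0.80 and -0.26, so the axis was weakest at 24 h, where Cyp2e1 itself was lowest (478 CPM against 1130.3 to 2306). Pck1 correlated with Cyp2f2 at 0.28, 0.60, 0.34, 0.52 and 0.43, and with Cyp2e1 at -0.23, -0.28, -0.07, -0.49 and -0.13. In deep cells the first set was 0.18, 0.39, 0.28, 0.61 and 0.14, and the second -0.21, -0.39, -0.07, -0.54 and -0.16. G6pc correlated with Cyp2f2 at 0.37, 0.50, 0.25, 0.35 and 0.65 (deep cells 0.28, 0.29, 0.21, 0.35 and 0.45) and with Cyp2e1 between -0.24 and -0.12 (deep cells -0.26 to -0.17). Fbp1 was more negative with Cyp2e1 than Pck1 and G6pc were in each library, at -0.40, -0.40, -0.37, -0.54 and -0.22 (deep cells -0.42, -0.54, -0.47, -0.58 and -0.25). With Cyp2f2 it stood at 0.29, 0.07, 0.45, 0.48 and -0.32, in deep cells at 0.31, 0.54, 0.50, 0.58 and -0.07. At 24 h Cyp2f2 correlated positively with G6pc, Slc37a4 (0.81, deep cells 0.66) and Pcx (0.68, deep cells 0.45), and negatively with Fbp1. The mitochondrial share divided the same genes the same way at 24 h. It correlated with Slc37a4 at 0.76 (deep cells 0.69), with Cyp2f2 at 0.68 (0.50), with Pcx at 0.53 (0.25) and with G6pc at 0.49 (0.29), but with Fbp1 at -0.52 (-0.33). Within 5 bins of the mitochondrial share, Fbp1 with Cyp2f2 at 24 h was -0.01, while Slc37a4 (0.66), G6pc (0.53) and Pcx (0.49) stayed positive with Cyp2f2. The negative Fbp1 value was thus not seen within these bins.

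Cells of each library were also cut into 5 equal bins by the ratio of Cyp2f2 to Cyp2e1, from central to portal. In the fed library Pck1 was 474 CPM in the most central of them and 789, 1025, 1029 and 1021 CPM in the next 4. At 16 h it was 2131, 3425, 4269, 4370 and 4379 CPM. In both the rise lay between the central and the middle bin, and the 3 bins from there on differed little. At 8 h it went from 3313 to 4076 CPM. The log2 ratio of the most portal to the most central bin was 1.11, 0.75, 0.30, 1.04 and 0.45 for Pck1. In deep cells it was 0.92, 0.65, 0.28, 1.08 and 0.18.

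The gradient of G6pc did not follow that of Pck1 at the last time point. Its portal to central log2 ratio was 1.13 (1.03 to 1.23), 0.62, 0.41, 0.83 and 1.42 (1.33 to 1.52). In deep cells it was 0.91 (0.82 to 0.99), 0.49, 0.39, 0.78 and 0.95 (0.87 to 1.03), with overlapping intervals at 0 and 24 h, and with cells ordered by a landmark score, from 11 portal and 12 central genes, it was higher at 0 h (1.23) than at 24 h (1.07). Without cells over 15% mitochondrial UMIs it was 2.39 (2.15 to 2.64) at 24 h against 1.07 at 0 h, and with no lower mitochondrial limit 2.22 against 1.44. The size of the 24 h gradient, and whether it was above that at 0 h, thus depended on the setting. The central bin had a median of 2637 UMIs per cell at 24 h against 3903 or more in the other 4 bins, and the median mitochondrial share at 24 h went from 9.34% in the central to 19.5% in the portal bin. The Pck1 ratio at 24 h was likewise 0.91 and 0.69 under these 2 settings. Fbp1 had ratios of 0.57, 0.62, 0.64, 0.71 and -0.03 (-0.09 to 0.02), and at 24 h the 5 bins lay between 976 and 1002 CPM. The Fbp1 ratio at 24 h depended on the setting in both directions. It was -0.35 (-0.43 to -0.27) without cells over 15% mitochondrial UMIs and -0.46 (-0.49 to -0.42) with no lower mitochondrial limit, but 0.14 (0.08 to 0.20) in deep cells and 0.31 (0.26 to 0.36) with the landmark score. At 4 h it was -0.03 (-0.18 to 0.12) without cells over 15% mitochondrial UMIs.

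The Pcx ratios were -0.08 (-0.19 to 0.02), 0.12, 0.34, -0.17 and 0.57, of both signs. Slc37a4 stood at 0.08, 0.10, 0.14, 0.42 and 0.90, with an interval reaching below 0 in the fed library (-0.02 to 0.19) and at 4 h. With no lower mitochondrial limit these 2 were 0.38 (0.27 to 0.49) and 0.36 (0.27 to 0.45). Without cells over 15% mitochondrial UMIs the 4 h ratio was 0.69 (0.30 to 1.10) for Slc37a4 and 0.70 (0.34 to 1.07) for Pcx. Across settings, at 24 h Slc37a4 ranged from 0.52 in deep cells to 1.72 with no lower mitochondrial limit. At 24 h Pcx ranged from 0.26 in deep cells to 0.96 without cells over 15% mitochondrial UMIs. Ppargc1a was portal in the fed library, at 1.48 (1.04 to 1.94), and at 16 h, at 1.40 (1.07 to 1.74), from 9.82 to 27.4 CPM and from 16.3 to 43.1 CPM. The 4 h ratio was 0.89. The 8 h ratio of 0.27 had an interval that held 0 (-0.04 to 0.57), but it was 0.55 (0.26 to 0.84) with the landmark score, 0.67 (0.21 to 1.14) between the outermost of 10 equal bins and 0.79 (0.44 to 1.15) with no lower mitochondrial limit. The 24 h ratio of 0.43 ranged from 0.07 (-0.38 to 0.53) between the outermost of 10 bins to 1.34 (0.74 to 2.01) without cells over 15% mitochondrial UMIs. In deep cells the Ppargc1a ratio was 1.13, 0.67, 0.30, 1.30 and 0.26.

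**Figure D4:**
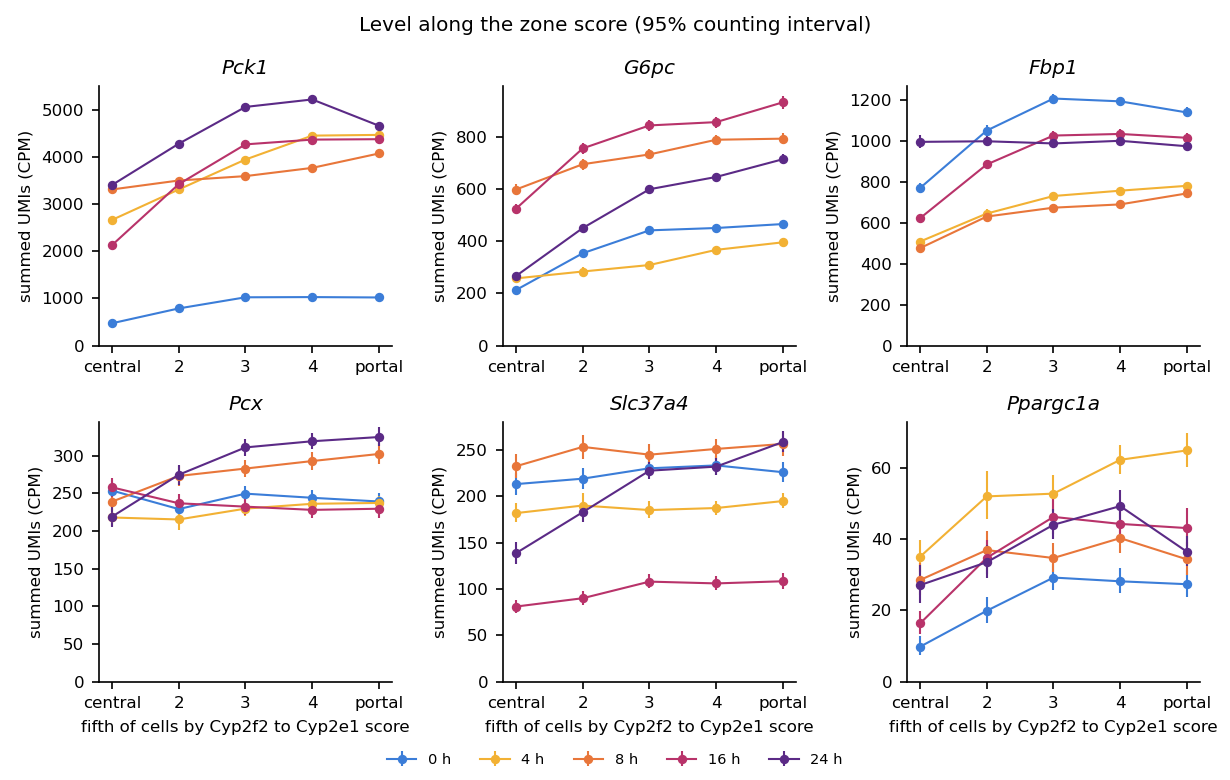
Level of each gene (CPM of summed UMIs, y axis, with 95% counting intervals) in 5 equal bins of the cells ordered from central to portal by the ratio of Cyp2f2 to Cyp2e1 (x axis), with 1 line per library. Pck1 and G6pc were lowest in the central bin in all 5 libraries, and Fbp1 at 24 h lay between 976 and 1002 CPM in the 5 bins, with a ratio that took either sign under other settings.

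The pairing of members was then read within parts of this axis. Averaged within the 5 bins, the correlation of Pck1 with G6pc was 0.26, 0.32, 0.22, 0.25 and 0.29, lower than over all cells by more than 0.1 at 4 and 24 h and by less at the other times. Within 5 bins of the landmark score it was 0.18, 0.26, 0.24, 0.19 and 0.23. Deep cells within zone bins gave 0.26, 0.07, 0.26, 0.36 and 0.16. The correlation of Pck1 with Fbp1 at 16 h was 0.65 within zone bins, and 0.55 in deep cells within them.

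With cells ranked by Pck1 cut into 5 equal groups, the highest group was set against the lowest, with Pck1 left out of the total. G6pc was 524 against 281 CPM in the fed library, 388 against 232 CPM at 4 h, 854 against 624 CPM at 8 h, 1021 against 569 CPM at 16 h and 691 against 420 CPM at 24 h. The log2 ratios were 0.90, 0.74, 0.45, 0.84 and 0.72, and within zone bins 0.62, 0.22, 0.39, 0.57 and 0.37. Every one of these was above 0 with its counting interval, and the share of all genes with such ratios was not computed. For Fbp1 the ratios were 0.50, 0.18, 0.22, 0.83 and 0.41, and within zone bins 0.30, -0.01, 0.18, 0.54 and 0.39. In deep cells they were 0.40, 0.45, 0.21, 0.77 and 0.62.

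Ppargc1a had the highest ratio of the 5 other members between Pck1-high and Pck1-low cells at 4, 16 and 24 h, and one close to that of G6pc at 0 and 8 h. It stood at 31.4 against 16.4 CPM in the fed library, 68.2 against 23.1 CPM at 4 h, 38.4 against 28.4 CPM at 8 h, 51.9 against 18.0 CPM at 16 h and 53.0 against 17.0 CPM at 24 h. The log2 ratios were 0.94 (0.56 to 1.32), 1.56 (1.20 to 1.94), 0.44 (0.13 to 0.74), 1.53 (1.21 to 1.86) and 1.64 (1.28 to 2.03). Within zone bins they were 0.48, 0.70, 0.46, 0.90 and 1.47, and in cells of 3000 or more UMIs 0.70, 0.68, 0.43, 1.51 and 1.49. All 15 were above 0 with their intervals, although the correlation of Ppargc1a with Pck1 over single cells could be given only at 4 h. The share of all genes with such ratios was not computed. A correlation of 0.2 or more with Pck1 was common among all genes at 4 and 24 h (55.1% and 59.1%).

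Pcx and Slc37a4 did not go with Pck1 in a set direction. Pcx stood at log2 ratios of 0.22, 0.51, -0.14, -0.12 and 0.59, and Slc37a4 at 0.02, 0.29, -0.12, 0.48 and 0.21. In deep cells at 24 h Slc37a4 stood at -0.09 with an interval of -0.20 to 0.02. At 16 h, where Slc37a4 was low, it was 119 CPM in Pck1-high and 85.2 CPM in Pck1-low cells. Depth moved with these groups. In the fed library Pck1-high cells had a median of 5869 UMIs and Pck1-low cells, none of which had a Pck1 UMI, 2179. In deep fed cells, where the medians were 6246.5 and 5197, the G6pc ratio was 0.84. In deep cells at 4, 8, 16 and 24 h it was 0.32, 0.45, 1.02 and 0.35. Depth still differed between the deep groups at 24 h, with medians of 11111.5 and 6289.5 UMIs. Over all hepatocytes at 4 h, Pck1-high cells had a median of 11382 UMIs and Pck1-low cells 1698. At 24 h these were 11047.5 and 2994, and at 8 h the order was the other way, at 6548 and 13907.

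**Figure D5:**
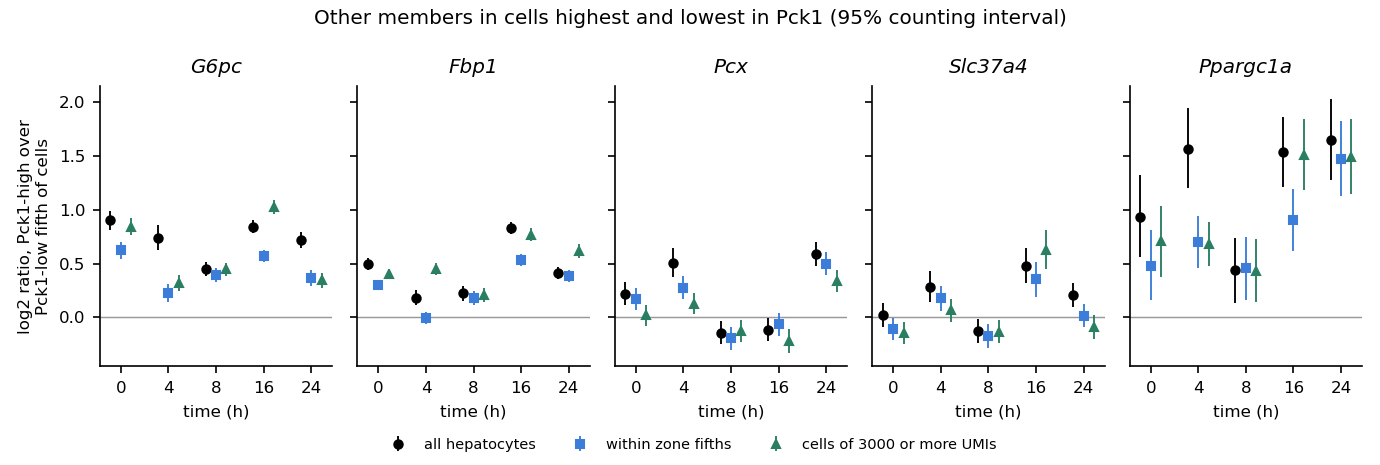
Log2 ratio of each other member between the highest and the lowest of 5 equal groups of cells ranked by Pck1 (y axis) by time without food (x axis), for all hepatocytes, for ranks taken within zone bins and for cells of 3000 or more UMIs, with 95% counting intervals. G6pc and Ppargc1a were above 0 in every library under all 3 settings, while Pcx and Slc37a4 fell on both sides of 0. The share of all genes above 0 was not computed.

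Other per-cell measures moved with the members. The sum of 8 acute phase genes correlated with Pck1 at -0.09, -0.49, -0.30, -0.38 and -0.68, and in deep cells at -0.10, -0.34, -0.28, -0.40 and -0.76. With G6pc it stood at 0.08, -0.20, 0.12, -0.65 and -0.10, and in deep cells at 0.03, 0.05, 0.07, -0.68 and -0.09. It was most negative for G6pc at 16 h and for Pck1 at 24 h. With Fbp1 it stood at -0.35, 0.09, 0.13, -0.31 and -0.30, and in deep cells at -0.35, 0.20, 0.26, -0.29 and -0.34. The sum of 10 immediate early genes, which respond quickly to many stimuli, correlated positively with Pck1 (0.15 to 0.61, deep cells 0.20 to 0.52) and G6pc (0.35 to 0.58, deep cells 0.23 to 0.47) in all 5 libraries. With Fbp1 it stood at 0.36, -0.14, 0.11, 0.47 and -0.12, and in deep cells at 0.47, 0.24, 0.13, 0.36 and 0.20. The mitochondrial share correlated with G6pc at 0.22, 0.53, 0.03, 0.48 and 0.49, with Pck1 at 0.11, 0.38, -0.01, 0.14 and 0.11, and with Fbp1 at -0.10, -0.51, -0.16, -0.01 and -0.52. Deep cells gave 0.13, 0.25, -0.03, 0.51 and 0.29 for G6pc, 0.05, 0.02, -0.04, 0.39 and -0.19 for Pck1 and -0.13, -0.05, -0.28, 0.21 and -0.33 for Fbp1. The negative Fbp1 value at 4 h and the positive Pck1 value at 4 h were thus near 0 in deep cells. The logarithm of a cell's UMI count correlated with Pck1 at 0.28, 0.45, -0.41, 0.18 and 0.51, and in deep cells at 0.11, 0.10, -0.27, -0.13 and 0.38. With G6pc it stood at 0.22, 0.47, 0.08, -0.10 and 0.44 (deep cells -0.04, -0.01, 0.06, -0.21 and 0.17). With Fbp1 it stood at 0.34, -0.50, -0.34, 0.10 and -0.40 (deep cells 0.37, -0.08, -0.25, -0.20 and -0.08). At 24 h it stood at 0.65 with Pcx (deep cells 0.27) and 0.57 with Slc37a4 (0.13). At 4 h it stood at 0.52 with Ppargc1a (0.17). The part of these measures in the correlations between members was not tested beyond the settings given, among them 5 bins of UMI count, within which Pck1 and G6pc stood at 0.31 at 4 h and 0.26 at 24 h, and 5 bins of the mitochondrial share, within which they stood at 0.36 and 0.46.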

How the data were processed

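The deposited matrices held UMI counts per gene and barcode, 10000 barcodes per library, with 0 unused columns of per-sample values. The submitters' processing notes name Cell Ranger 6.0.1 and mm10. CPM and cell fractions were computed here from the deposited counts over nuclear-encoded UMIs. Cells needed 1000 UMIs, 500 genes and 2% to 30% mitochondrial UMIs, and cells with 3 or more markers of another cell type that reached 1% of UMIs (5% for erythroid genes) were left out. Doublets were not called, and an alternative left out the deepest 10% of cells. Correlations were corrected for counting noise with factorial moments, in Python 3.11.15 with numpy 2.4.6, scipy 1.17.1 and pandas 2.3.3, and checked on simulated counts. Intervals are exact Poisson, conditional binomial or Clopper-Pearson at 95%. Scaling by TMM (edgeR 4.0.16) or median of ratios was an alternative, beside other depth, mitochondrial, thinning, rank, trimming and zone settings.

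Genes beyond the members were named by the highest and lowest median correlation over the 5 libraries, 5 each for Pck1 and G6pc and 3 each for Fbp1, and 3 each from the pathway and control lists. Pcx, Slc37a4 and Ppargc1a had no such ranking. Some genes that the rule names are not reported here. The members and lists were chosen with earlier results of these data known. Free RNA was not corrected for. Gene positions come from GENCODE M21, promoters from RefSeq, where all 6 members matched.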

Additional observations from a re-analysis of the deposited data

How the results depend on the processing

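Of the alternative values for the median correlation between members and for that of Pck1 with G6pc, 106 moved by less than 0.1, 59 by more and 3 changed sign. Which pairs enter the median changed with the setting, and some alternatives gave no value because too little variance was left beyond counting noise. No paired analysis was possible because each time point was 1 library. The cause of these moves was not tested.

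The median at 0 h (0.34) was 0.22 on log values, 0.078 as Spearman's rho of thinned counts and 0.18 within landmark bins, and Pck1 with G6pc 0.081 and 0.18 under the last 2. The 4 h median (0.22) changed sign at no more than 15% mitochondrial UMIs (-0.27), within zone bins (-0.018) and within landmark bins (-0.026). It was 0.026 by Spearman, 0.73 without the top 1% of cells and 0.072 in deep cells within zone bins. Pck1 with G6pc at 4 h (0.44) was 0.63 with no lower mitochondrial limit, 0.62 at no more than 15%, 0.14 in deep cells, 0.11 thinned to 3000 UMIs, 0.12 by Spearman, 0.56 without the top 1%, 0.32 and 0.26 within zone and landmark bins, 0.31 within UMI bins and 0.072 in deep cells within zone bins.

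At 8 h the median and Pck1 with G6pc (both 0.25) were 0.46 with no lower mitochondrial limit, 0.50 and 0.39 thinned to 1000 and 3000 UMIs and 0.059 and 0.061 by Spearman. On log values they were 0.13 and 0.096, and the median was 0.50 without the top 1%. At 16 h both (0.34) were 0.44 in deep cells and thinned to 3000 UMIs, 0.20 on log values, 0.10 by Spearman and 0.19 within landmark bins. The 24 h median (0.38) was 0.49 with no lower mitochondrial limit, 0.61 at no more than 15%, 0.26 in deep cells, 0.11 and 0.22 thinned to 1000 and 3000 UMIs, 0.26 on log values, 0.034 by Spearman, 0.48 without the top 1%, 0.21 within landmark bins, 0.26 within UMI bins and 0.24 in deep cells within zone bins. Pck1 with G6pc at 24 h (0.40) was 0.51, 0.67, 0.21, 0.17 (thinned to 3000 UMIs) and 0.15 (Spearman) under these, and 0.29, 0.23, 0.26 and 0.16 within zone, landmark and UMI bins and in deep cells within zone bins.

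Of the other results, 869 alternatives moved little, 637 moved and 35 changed sign. A change of sign was counted only where the main correlation was 0.1 or more in size or the main ratio's interval left out 0, so values near 0 that crossed it count as moved. G6pc with Fbp1 at 4 h turned to 0.21 in deep cells, 0.28 thinned to 3000 UMIs, 0.016 on log values, 0.14 within UMI bins and 0.066 in deep cells within zone bins. At 24 h it turned to 0.20 in deep cells, 0.0045 and 0.20 thinned to 1000 and 3000 UMIs, 0.12 within mitochondrial and within UMI bins and 0.21 in deep cells within zone bins. Fbp1 with Pcx at 24 h turned to 0.069 in deep cells, 0.094 thinned to 3000 UMIs, 0.0042 and 0.025 within mitochondrial and UMI bins and 0.088 in deep cells within zone bins, and Fbp1 with Slc37a4 to 0.0032 by Spearman. Fbp1 with Ppargc1a at 4 h turned to 0.26 in deep cells, 0.041 on log values, 0.014 by Spearman and 0.20 within UMI bins. With Cyp2e1, Pck1 turned to 0.023 at 0 h and 0.12 at 4 h within landmark bins and 0.29 at 4 h within zone bins, and G6pc to 0.044 within landmark bins and 0.33 within zone bins at 4 h and 0.047 within landmark bins at 16 h. With Cyp2f2, Fbp1 turned to -0.080 at 0 h within landmark bins and G6pc at 8 h within zone bins to -0.027 in all and -0.026 in deep cells. Both bins are cut by scores that hold Cyp2f2 and Cyp2e1, which ties the 2 genes within a bin (0.90 within zone bins against -0.68 over all cells at 4 h), so these sign changes with Cyp2e1 or Cyp2f2 are not read as results. Fbp1 against fed at 24 h turned to 0.12 with no lower mitochondrial limit and 0.050 as a mean of per-cell values, and at 4 h its portal to central ratio to -0.032 at no more than 15% mitochondrial UMIs and its ratio in Pck1-high cells to -0.0061 within zone bins. Slc37a4 in Pck1-high cells at 24 h turned to -0.089 in deep cells. Settings of deep cells within zone bins, and of Pck1 ranks in deep cells, were chosen after seeing the data.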
